A study of Pimephales promelas with 15 samples.

Results

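The count table of this series identifies genes as a scaffold prefix and a number, and 28 of its 26150 IDs carry the prefix scaf140. They were taken by that prefix and ordered by the number after the dot, which runs from 1 to 39; the 11 numbers without a row were not analysed here. IDs 3 to 8 (scaf140.3, scaf140.4, scaf140.5, scaf140.6 and scaf140.8, 5 rows) were set apart because strongly estrogen-induced IDs sit there, so their differences from solvent chose them and are given as a description. The other 23 IDs share only the prefix. The files do not pair any ID with a gene name, 0 of the 26150 IDs matched the RefSeq gene table of assembly fPimPro1.hap1.1, and 0 of 18 symbols of known estrogen-response genes matched an ID. No gene name, length or genome position is therefore given to a member, and the files do not say whether neighbouring numbers lie side by side on a scaffold. Reads may be shared where adjacent numbers are duplicates or fragments of 1 gene, and the split between such IDs is then uncertain.

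The samples were whole fathead minnows (Pimephales promelas), a small freshwater fish used in toxicity testing, at 4 days post-hatch. Pools were exposed to 100 ng/L or 20 ng/L EE2 (nominal levels), or to 0.01% DMSO as the solvent control, starting less than 6 hours after fertilization and ending at 96 hours post-hatch, with static renewal of the water in dishes. EE2, 17alpha-ethinylestradiol, is the synthetic estrogen of oral contraceptives. Each of the 3 groups had 5 poly(A) RNA libraries, with total counts from 32674182 to 73989987, and no DMSO level is stated in the titles of the EE2 groups. The labels state neither the number of larvae in a pool nor whether the pools of a group came from separate dishes, so the p-values cover the variation among these libraries alone, which may be technical. Since whole bodies were used, more RNA per cell and more cells of a type cannot be told apart. Defining tissue markers could not be looked up for want of gene names.

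Estrogens act in fish through nuclear estrogen receptors, transcription factors that bind DNA once they carry the hormone. In the liver of egg-laying vertebrates the receptors switch on the genes of egg-yolk precursors (vitellogenins) and egg-envelope proteins (choriogenins). Males and larvae keep the receptors and respond to estrogen in the water, so the appearance of these products in such fish is a standard sign of exposure. Many of these genes occur as families of similar copies. This is background, and none of it identifies a scaf140 ID.

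On all 15 libraries, the members called against solvent were the 5 IDs set apart for their rise. That they lie together in the order of numbers was thus fixed by the choice. These 5 IDs are named the run below. All 5 of IDs 3 to 8 lay higher at both EE2 concentrations than in solvent with no overlap between libraries (as did 0.405% of all IDs tested at 100 ng/L and 0.132% at 20 ng/L), by 1924- to 3656-fold at 100 ng/L and by 90.3- to 194-fold at 20 ng/L. Of the 21 IDs numbered 9 and above that had enough counts, 0 passed the edgeR test in either EE2 group on all libraries. So few IDs of the whole table passed, 0.0956% higher and 0.0091% lower at 100 ng/L and 0.0501% at 20 ng/L, that a count of 0 among 21 does not set them apart. In CPM (counts relative to library size, normalised by the trimmed mean of M-values, TMM), IDs 3 to 8 summed to between 7030 and 13713 at 100 ng/L, between 130.4 and 1905 at 20 ng/L and between 2.48 and 6.60 in solvent. The other 23 IDs summed to 356 ± 16.3 CPM at 100 ng/L, 352 ± 6.61 CPM at 20 ng/L and 352 ± 17.2 CPM in solvent (SD, n = 5 each). The 3 groups of these sums overlapped.

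At 100 ng/L, scaf140.3 had 4304, 3492, 3028, 2604 and 3285 CPM in replicates 1 to 5, at 20 ng/L 333, 143, 124, 70.0 and 832 CPM, and in solvent 1.74, 2.06, 0.486, 1.04 and 2.45 CPM. The lowest library at 100 ng/L lay above the highest at 20 ng/L, and replicate 5 stood highest at 20 ng/L. Its log2 fold change was 11.08 (SE 0.82) at 100 ng/L and 7.60 (SE 0.72) at 20 ng/L against solvent, or 6.76 at 20 ng/L without replicate 5 of that group.

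For scaf140.4 the libraries at 100 ng/L had 1925, 1979, 1677, 1125 and 1708 CPM, those at 20 ng/L 101, 44.2, 32.1, 19.7 and 253 CPM, and those in solvent 1.01, 0.678, 0.306, 0.792 and 0.765 CPM. The 3 groups did not overlap, and replicate 4 was the lowest library at each EE2 concentration. Against solvent its log2 fold change was 11.22 (SE 0.81) at 100 ng/L and 6.99 (SE 0.69) at 20 ng/L (6.12 without replicate 5 of 20 ng/L).

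Levels of scaf140.5 were 1882, 2342, 1740, 1053 and 2125 CPM at 100 ng/L, 94.998, 42.0, 31.0, 14.6 and 246 CPM at 20 ng/L, and 0.832, 1.75, 0.899, 0.396 and 0.937 CPM in solvent. Again replicate 4 was lowest in both EE2 groups and replicate 5 highest at 20 ng/L. The log2 fold change against solvent was 10.91 (SE 0.87) at 100 ng/L and 6.50 (SE 0.74) at 20 ng/L (5.58 without replicate 5 of 20 ng/L).

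The ID scaf140.6 had 2206, 2575, 1807, 984 and 2784 CPM at 100 ng/L, 134, 36.9, 29.9, 13.3 and 312 CPM at 20 ng/L, and 0.546, 0.756, 0.540, 0.918 and 0.784 CPM in solvent. Its 20 ng/L libraries spread widest of the 5 IDs, with the highest 23.5 times the lowest. Against solvent it had a log2 fold change of 11.50 (SE 0.97) at 100 ng/L and 7.20 (SE 0.83) at 20 ng/L (6.22 without replicate 5 of 20 ng/L).

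At the upper end of the run, scaf140.8 had 2434, 3325, 2840, 1264 and 3621 CPM at 100 ng/L, 132, 39.5, 38.5, 12.9 and 262 CPM at 20 ng/L, and 0.676, 1.36, 0.252, 0.810 and 0.650 CPM in solvent. Every library at 100 ng/L lay above every library at 20 ng/L, and each of these above every solvent library. Its log2 fold change was 11.84 (SE 0.95) at 100 ng/L and 7.04 (SE 0.80) at 20 ng/L (6.24 without replicate 5 of 20 ng/L).

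**Figure D1:**
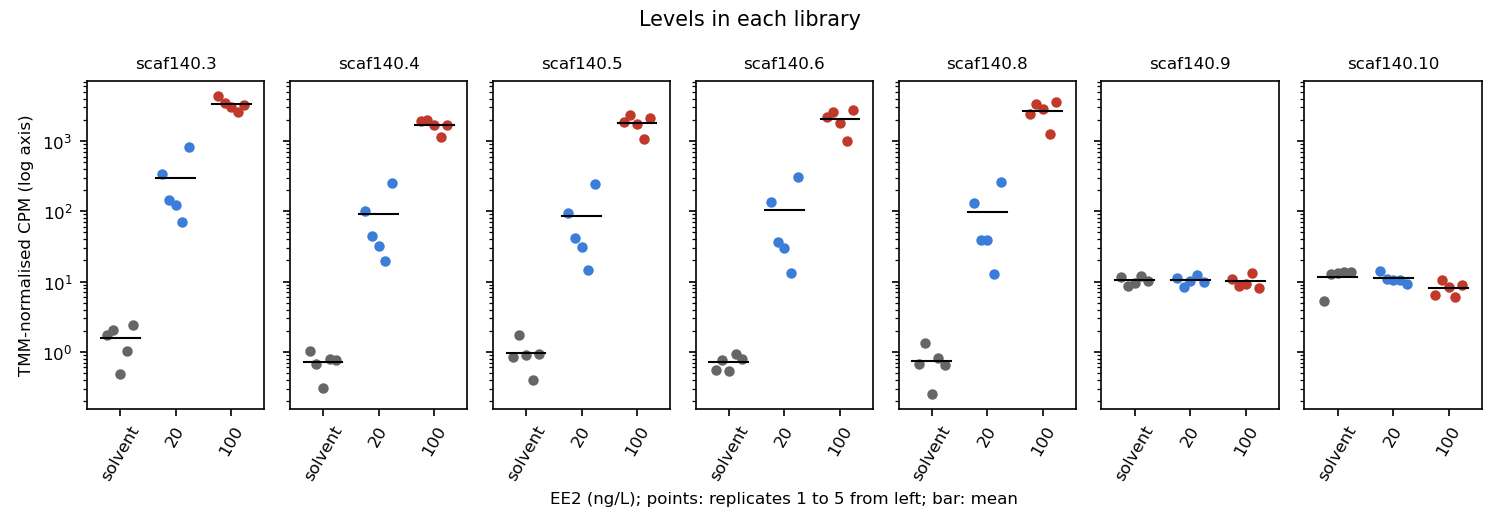
TMM-normalised CPM on a log axis for IDs 3 to 8 and for scaf140.9 and scaf140.10, with solvent, 20 ng/L and 100 ng/L EE2 from left to right; points are the 5 libraries of a group and bars their means. IDs 3 to 8 climb in 2 steps without overlap, while scaf140.9 stays between 7.99 and 13.0 CPM in all 15 libraries.

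The fold change broke off on the upper side of the run. The nearest ID above the run, scaf140.9, averaged 10.02 ± 2.01 CPM at 100 ng/L, 10.4 ± 1.60 CPM at 20 ng/L and 10.4 ± 1.40 CPM in solvent (SD, n = 5 each), with overlap of all groups. Its log2 fold change at 100 ng/L was -0.057 (SE 0.15, 95% interval -0.38 to 0.26), and it did not pass the edgeR quasi-likelihood test (adjusted p = 0.921).

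Below the run, scaf140.1 and scaf140.2 had too few counts to pass the filter of the fit on all 15 libraries. The edgeR fit without a filter on low counts tested all 28 members and called neither of them in any contrast. At 100 ng/L against solvent it called 23 of 25171 IDs. At 100 ng/L scaf140.1 had 8, 0, 11, 3 and 3 counts in replicates 1 to 5, at 20 ng/L 0 counts in every library, and in solvent 1 count, in replicate 1. Pooled over libraries, its level at 100 ng/L was 12.2 times that of a floor of 3 counts over the 20 ng/L group. That floor is not a bound, as 0 counts there leave an exact 95% interval up to 0.0134 CPM. Against solvent the pooled level was 31.8-fold higher (exact 95% counting interval 5.20 to 1305). The counts of scaf140.2 were 3 in replicate 3 at 100 ng/L and 0 in the other 14 libraries. Its exact 95% intervals reached up to 0.0134 CPM at 20 ng/L and 0.0154 CPM in solvent. Both overlapped that at 100 ng/L, 0.00327 to 0.0464 CPM. At 100 ng/L the pooled level of scaf140.1 was 0.132 CPM (exact 95% interval 0.0856 to 0.195). These intervals and floors cover counting error only.

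**Figure D2:**
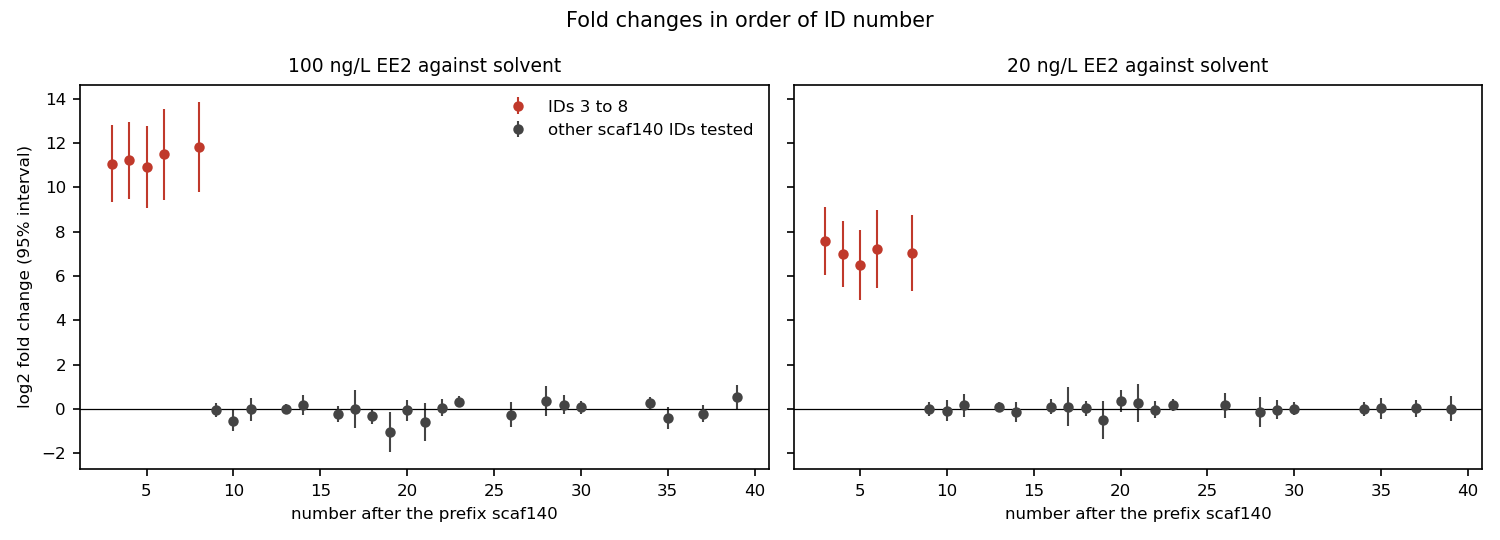
Fitted log2 fold change with its 95% interval for the 26 members tested, in order of ID number, for 100 ng/L (left) and 20 ng/L EE2 (right) against solvent. IDs 3 to 8 lie between 10.91 and 11.84 at 100 ng/L, and the other 21 lie between -1.05 and 0.53.

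In the fit across all IDs, 5 of the 26 members tested had an edgeR quasi-likelihood adjusted p below 0.05 at 100 ng/L against solvent, all higher, where 0.0956% of all IDs tested were called higher and 0.0091% lower. At 20 ng/L the same 5 members were called, where 0.0501% of all IDs tested were. They are IDs 3 to 8 themselves, which this contrast chose, so nothing is read from the counts.

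Of the other 21 members tested, 0 were called by edgeR at 100 ng/L on all 15 libraries, with 3 at an unadjusted p below 0.05 and 0 called by DESeq2. Their log2 fold changes were above 0 for 8 and below 0 for 13, with a median of -0.023 where the median of all IDs tested was -0.0061. At 20 ng/L 0 were called by edgeR or DESeq2 and 0 had an unadjusted p below 0.05, and the fold changes ran from -0.51 to 0.35. None (0) of the 21 had groups without overlap against solvent. Of all IDs tested, 0.405% were higher without overlap at 100 ng/L and 0.378% lower, and 0.132% were higher at 20 ng/L and 0.0228% lower.

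The lowest fold changes among these members were those of scaf140.19, scaf140.21 and scaf140.10. Levels of scaf140.19 averaged 3.80 ± 1.60 CPM at 100 ng/L and 7.82 ± 5.89 CPM in solvent (SD, n = 5 each), and its log2 fold change of -1.05 (SE 0.42) missed the threshold (edgeR adjusted p = 0.611). Solvent replicate 5 held 17.8 CPM where the other solvent libraries had 3.04 to 7.38 CPM, and without it the log2 fold change was -0.49. For scaf140.21 the log2 fold change was -0.59, and for scaf140.10 it was -0.53. At the other end scaf140.39 had 0.53, scaf140.28 0.36 and scaf140.23 0.32, and none of the 6 passed the test (edgeR adjusted p from 0.611 to 0.756). The members with the highest mean CPM were scaf140.34, scaf140.35 and scaf140.13, whose log2 fold changes of 0.24, -0.41 and -0.0094 did not pass either (edgeR adjusted p from 0.649 to 0.984).

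Solvent replicate 1 decided the calls outside IDs 3 to 8. Without it, 4 of the other members were called at 100 ng/L (edgeR adjusted p from 0.0246 to 0.0445), where 2.04% of all IDs tested were called higher and 2.42% lower. These were scaf140.39 (log2 fold change 0.91) and scaf140.34 (0.41), which were higher, and scaf140.10 (-0.71) and scaf140.35 (-0.59), which were lower. For scaf140.10 the libraries had 6.52, 10.7, 8.42, 5.97 and 8.83 CPM at 100 ng/L, and 5.33, 13.0, 13.1, 13.5 and 13.6 CPM in solvent. For scaf140.35 they had 20.8, 28.1, 24.2, 26.6 and 23.8 CPM at 100 ng/L, and 14.9, 30.0, 36.0, 41.7 and 41.1 CPM in solvent. In both, solvent replicate 1 lay below all libraries at 100 ng/L and the other 4 solvent libraries above them. Levels of scaf140.39 were 5.33, 4.14, 5.71, 5.64 and 5.03 CPM at 100 ng/L, and 6.92, 2.35, 2.27, 3.40 and 3.04 CPM in solvent. Those of scaf140.34 were 96.6, 68.8, 79.2, 85.2 and 76.0 CPM at 100 ng/L, and 96.8, 64.8, 54.2, 68.2 and 58.7 CPM in solvent. Here solvent replicate 1 lay above all libraries at 100 ng/L, and the other 4 solvent libraries lay below them. What sets that library apart was not tested.

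The authors' deposited table for 100 ng/L holds 23 members, 8 of them at an adjusted p below 0.05, where 7.34% of its IDs are. These are IDs 3 to 8 with scaf140.34 (log2 fold change 0.38 in the authors' deposited table), scaf140.10 (-0.73) and scaf140.35 (-0.61). Outside IDs 3 to 8 that is 3 of 18 members. The authors called 1143 of 15569 IDs there, and the fit on all 15 libraries 23 of 21976, so the 2 are unlike. In that fit the 3 members had log2 fold changes of 0.24, -0.53 and -0.41. Without solvent replicate 1 they had 0.41, -0.71 and -0.59, nearer the authors' values. The reason for the difference was not tested. The authors' table for 20 ng/L has 5 of the 23 members at an adjusted p below 0.05, where 0.0707% of its IDs are, and 0 of the 18 outside IDs 3 to 8. Contrasts of this kind chose IDs 3 to 8, so nothing is read from their calls here either.

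Between the concentrations, IDs 3 to 8 were all higher at 100 than at 20 ng/L, by a factor that differed among them. The log2 difference was 3.48 (SE 0.59) for scaf140.3, 4.23 (SE 0.59) for scaf140.4, 4.41 (SE 0.65) for scaf140.5, 4.30 (SE 0.70) for scaf140.6 and 4.80 (SE 0.70) for scaf140.8. By edgeR's quasi-likelihood test the adjusted p was 0.0205 for scaf140.4 and 0.0225 for both scaf140.5 and scaf140.8, and 0.0702 for scaf140.3 and 0.0535 for scaf140.6 (n = 5 per group). Thus 3 of 26 members were called, where 0.0273% of all IDs tested were. All 5 IDs were higher without overlap, as were 1.39% of all IDs tested (1.66% were lower), and 0 of the other 21 members were so in either direction. These 5 IDs had been chosen for their rise from solvent, so the calls, which share libraries with that contrast, are no independent evidence. Of the other 21 members, 0 were called by edgeR or DESeq2, with 2 at an unadjusted edgeR p below 0.05. DESeq2 called all 5 of IDs 3 to 8, where it called 0.147% of all IDs tested, and edgeR on these 2 groups alone called 0, where it called 0.0232%. Without replicate 5 of 20 ng/L edgeR called all 5, with log2 differences of 4.32 to 5.60, where it called 0.0362% of all IDs tested. Without any 1 of 20 ng/L replicates 1, 2 and 3, 100 ng/L replicates 2, 3 and 5 and solvent replicate 1, 0 members were called, with all 5 IDs at an unadjusted p below 0.05. Of all IDs tested, 0.00901% were called without solvent replicate 1 and 0% in the other 6 of these fits. Of the members only scaf140.4 was called without 100 ng/L replicate 1 (0.0180% of all IDs tested) or without solvent replicate 5 (0.0136%).

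The pools of the 20 ng/L group differed widely in IDs 3 to 8. At 20 ng/L the highest library was 11.9 to 23.5 times the lowest for each of them, and at 100 ng/L 1.65 to 2.86 times. The other 21 members spread by a median of 1.53 times at 20 ng/L and 1.56 times at 100 ng/L, and by at most 4.34 and 3.88 times. In solvent IDs 3 to 8 spread by 1.70 to 5.38 times, and the others by a median of 2.04 and at most 5.86 times. As SD of log2 CPM, IDs 3 to 8 had 0.27 to 0.60 at 100 ng/L, 1.39 to 1.82 at 20 ng/L and 0.32 to 0.90 in solvent. The median SD over all IDs tested was 0.26 at 100 ng/L, 0.23 at 20 ng/L and 0.33 in solvent.

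Counting error is small beside this in the EE2 groups. It would give an SD of 0.016 to 0.032 at 20 ng/L and of at most 0.006 at 100 ng/L. In solvent, with 14 to 128 counts per ID and library, it would give 0.19 to 0.27, which is close to the observed SD for scaf140.6 (0.32) and below that of the other 4 IDs.

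All 5 IDs put the 20 ng/L pools in 1 order, with replicate 5 highest, then 1, 2, 3 and 4. At 100 ng/L the 5 IDs gave 5 different orders, but each had replicate 4 lowest and replicate 3 was never highest. In solvent they also gave 5 different orders, with replicate 3 lowest for 4 of them. Among the other 21 members replicate 4 was lowest at 20 ng/L for 6 and at 100 ng/L for 5. Total counts at 20 ng/L were 37100443, 41796636, 50880829, 73989987 and 71772202 in replicates 1 to 5. From replicate 1 to 4 the totals rose while the levels of these IDs fell. Replicate 5, the highest in these IDs, had a total close to that of replicate 4, the lowest. At 100 ng/L replicate 4, the lowest in these IDs, had a total of 35170453, where the totals of that group ran from 32674182 to 48433139. A link with depth was not tested.

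**Figure D3:**
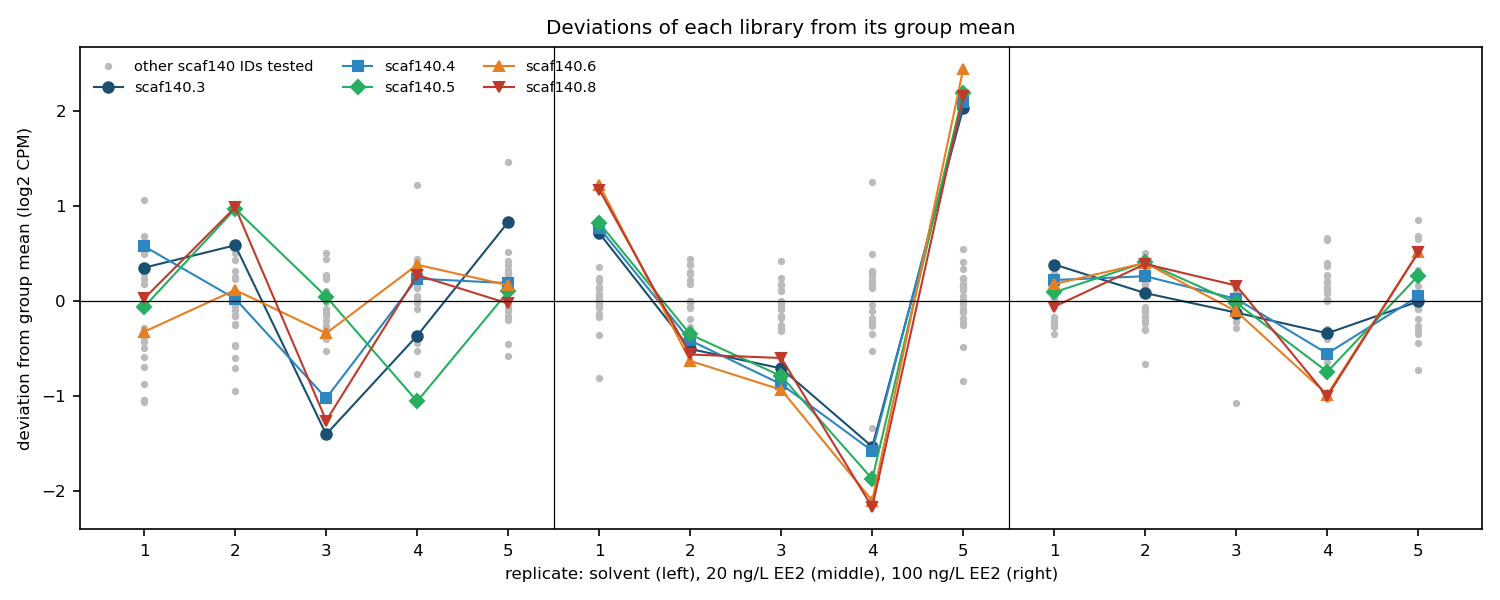
Deviation of log2 CPM from the group mean in each of the 15 libraries, for IDs 3 to 8 (coloured lines) and the other 21 members tested (grey points), with solvent on the left, 20 ng/L in the middle and 100 ng/L on the right. At 20 ng/L the 5 lines move together and all rank the replicates 5, 1, 2, 3 and 4 from high to low.

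Across pools, IDs 3 to 8 followed each other closely once the group means were removed. Over the 15 libraries the Pearson correlation of the log2 CPM deviations ran from 0.81 to 0.93 over the 10 pairs, with a median of 0.88, and Spearman's rho from 0.59 to 0.88. By permutation within groups, two-sided with Benjamini-Hochberg adjustment over the 10 pairs, all 10 pairs passed 0.05 for Pearson's r (adjusted p from 0.0019 to 0.012) and 9 for Spearman's rho (adjusted p from 0.0069 to 0.073). The exception was scaf140.4 with scaf140.5. The points share the scaling factor of their library, and the 20 ng/L pools carry most of the spread.

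The correlation was lower without replicates 4 and 5 of 20 ng/L, the 2 libraries farthest from the median. There r ran from 0.45 to 0.84 over 13 libraries, and 5 of the 10 pairs passed (permutation within groups, adjusted p from 0.038 to 0.21). The pairs that kept the call were scaf140.3 with scaf140.4 and scaf140.8, scaf140.4 with scaf140.6 and scaf140.8, and scaf140.6 with scaf140.8. The 4 pairs with scaf140.5 (r from 0.45 to 0.64, adjusted p from 0.066 to 0.21) missed the threshold over these 13 libraries. So did that of scaf140.3 with scaf140.6 (r = 0.58, adjusted p = 0.053). Their r stayed above 0. A pair passes less easily over fewer libraries, but r itself was also lower for each of the 10 pairs. For scaf140.4 with scaf140.5 it went from 0.81 to 0.45. How far the correlation rested on the 2 libraries left out was not tested. With solvent and 100 ng/L libraries alone the median over the 10 pairs was 0.51, and with each group's deviations divided by their SD it was 0.74.

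Correlations with and among the other members went in both directions. Over the 105 pairs of an ID of 3 to 8 with another member the median r was -0.03, with a range from -0.80 to 0.63, and 0 pairs reached 0.81, the lowest value within the run. Among the 210 pairs of other members the median was 0.02, from -0.88 to 0.90, with a median absolute r of 0.37, and 3 pairs reached 0.81. At the upper edge scaf140.6 and scaf140.8 had r = 0.93, and scaf140.8 and scaf140.9 had r = -0.35. Of the other members, scaf140.28 was most like the run (median r with IDs 3 to 8 of 0.51), followed by scaf140.23 (0.44) and scaf140.39 (0.19). At 20 ng/L scaf140.28 went with the run in replicates 1, 4 and 5, farthest in replicate 4 (deviation -1.33). In replicates 2 and 3 it lay above its group mean (0.44 and 0.42) where IDs 3 to 8 all lay below theirs. Among the pairs with an ID of 3 to 8, the most opposed was scaf140.21 with scaf140.5 (r = -0.80). These correlations are given as a description, with no test.

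In 6 of the other 21 members replicate 4 was an extreme library in all 3 groups, the highest for scaf140.9, scaf140.13, scaf140.16 and scaf140.21 and the lowest for scaf140.22 and scaf140.28. The share over all IDs tested is not given here, so the count is not read as a trait of these members. Replicate 4 had the lowest scaf140.28 level in each group, 14.6 CPM at 100 ng/L, 6.10 CPM at 20 ng/L and 10.3 CPM in solvent. It had the highest scaf140.21 level in each group, 5.64 CPM at 100 ng/L, 14.1 CPM at 20 ng/L and 11.5 CPM in solvent.

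**Figure D4:**
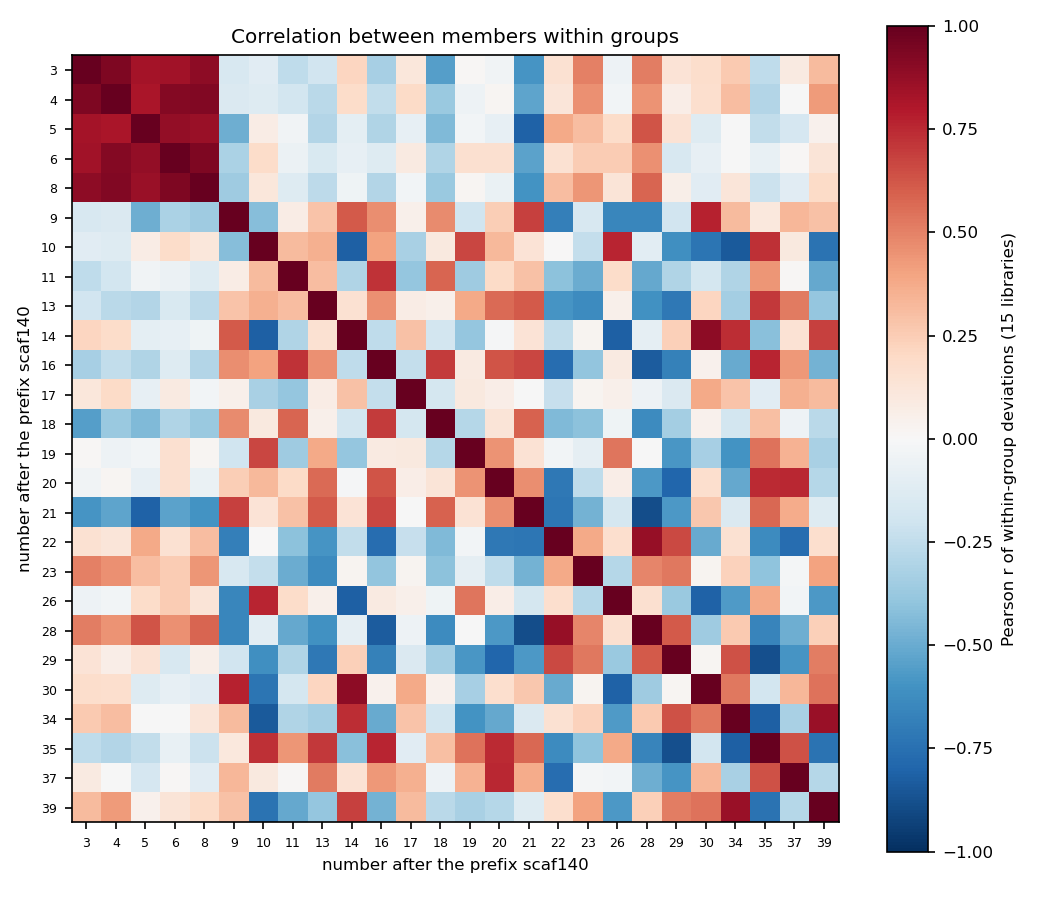
Pearson correlation of within-group deviations over 15 libraries between all 26 members tested, in order of ID number. The dark block at the upper left is IDs 3 to 8 (0.81 to 0.93); scaf140.28 is the outside row most like it (median 0.51).

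Over 21489 pairs of neighbouring tested IDs of all prefixes, leaving out the 4 within IDs 3 to 8, the median r was 0.05, and 2.43% reached the lowest value of those 4, 0.81. IDs 3 to 8 also varied more than most: the within-group SD over the 3 groups was 0.93 to 1.14 for them against a median of 0.30 over all IDs tested. Among the 181 neighbouring pairs in which both IDs varied at least as much as the steadiest of IDs 3 to 8, the median r was 0.17 and 10.5% reached 0.81.

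Although the IDs rose and fell together, the make-up of their joint counts was not the same at both concentrations. As a share of the counts of IDs 3 to 8, scaf140.3 had 33.8%, 25.5%, 27.3%, 37.0% and 24.3% in replicates 1 to 5 at 100 ng/L, and 41.9%, 46.8%, 48.5%, 53.6% and 43.7% at 20 ng/L. The groups did not overlap, and the mean was 29.6% ± 5.55 at 100 ng/L and 46.9% ± 4.55 at 20 ng/L (SD, n = 5 each), a difference of -17.3 percentage points (p = 0.00794 in an exact permutation test, two-sided; 0.0132 after adjustment over the 5 IDs). This p is the smallest that the design can give. Lengths of the IDs are not given, so shares are compared between groups and not between IDs.

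The share of scaf140.8 moved the other way, with 19.1%, 24.2%, 25.6%, 18.0% and 26.8% at 100 ng/L and 16.6%, 12.9%, 15.1%, 9.91% and 13.7% at 20 ng/L. These groups did not overlap either, and the mean share was 22.7% ± 3.96 at 100 ng/L and 13.7% ± 2.52 at 20 ng/L (SD, n = 5 each; exact permutation test, adjusted p = 0.0132). For scaf140.5 the share was 15.6% ± 0.909 at 100 ng/L and 12.4% ± 0.982 at 20 ng/L, also without overlap (SD, n = 5 each; exact permutation test, adjusted p = 0.0132). The shares of scaf140.6, 17.4% ± 2.49 at 100 ng/L and 13.4% ± 2.98 at 20 ng/L, overlapped and did not pass (SD, n = 5 each; exact permutation test, adjusted p = 0.0794). Those of scaf140.4, 14.7% ± 1.26 at 100 ng/L and 13.6% ± 1.12 at 20 ng/L, overlapped too (SD, n = 5 each; exact permutation test, adjusted p = 0.222). Shares add up to the whole, so the 5 tests are not independent of each other.

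**Figure D5:**
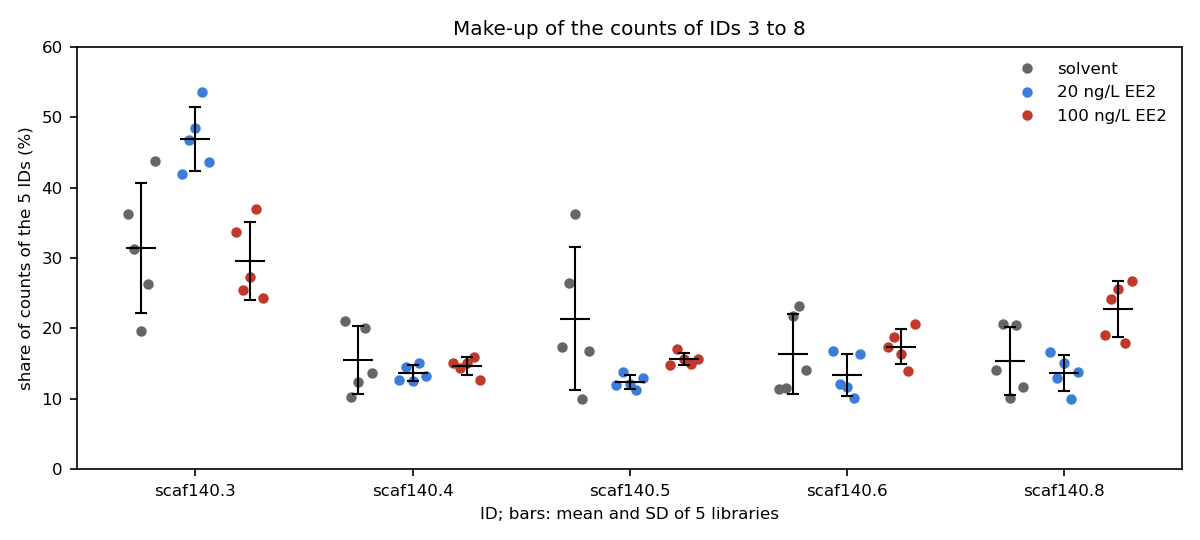
Share of each ID in the counts of IDs 3 to 8, in percent, with solvent, 20 ng/L and 100 ng/L EE2 from left to right for each ID; points are libraries and bars the mean and SD of 5. The shares of scaf140.3 at 100 ng/L (24.3% to 37.0%) lie below those at 20 ng/L (41.9% to 53.6%), and those of scaf140.8 lie above (18.0% to 26.8% against 9.91% to 16.6%).

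These differences exceed counting error, as Wilson 95% intervals of the shares reached at most 0.189 percentage points to either side at 100 ng/L and 0.964 at 20 ng/L. In solvent, IDs 3 to 8 had only 138 to 292 counts per library together and the intervals reached 7.92 points. There scaf140.3 took 31.4% ± 9.26 and scaf140.8 15.4% ± 4.89 of them (SD, n = 5), and both ranges overlapped those of both EE2 groups.

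The counts of scaf140.8 divided by those of scaf140.3 show the same contrast within each library. The ratio was 0.566, 0.952, 0.938, 0.485 and 1.10 in replicates 1 to 5 at 100 ng/L, and 0.396, 0.276, 0.311, 0.185 and 0.315 at 20 ng/L. In solvent it was 0.388, 0.658, 0.519, 0.776 and 0.266. At each EE2 concentration the pool with the lowest summed level, replicate 4, also had the lowest ratio and the highest share of scaf140.3. The pools with the highest summed level, replicate 2 at 100 ng/L and replicate 5 at 20 ng/L, did not have the highest ratio. In solvent the pool with the lowest summed level, replicate 3, had the lowest share of scaf140.3 (19.6%) and a ratio of 0.519.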

How the data were processed

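The submitters' processing notes name Trimmomatic 0.38, StringTie 1.3.4d and, for statistics, edgeR 3.26.5, without aligner, genome build, annotation or use of strand, which are thus not given in the sources used here. Whole-number counts were deposited for each ID in each library. The authors' comparison tables hold, per the file headers, log2 fold changes, a signed fold change with an F score, and p-values with their adjustment. The members and lists were chosen with earlier results of these data known.

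All 26150 IDs were fitted in R 4.3.3 with edgeR 4.0.16 (filterByExpr with minimum count 10 and minimum total 15, TMM, robust quasi-likelihood, group means over 15 libraries), and p-values were adjusted by Benjamini-Hochberg over 21976 IDs. An SE is the log2 fold change divided by the square root of F. Co-variation used log2 CPM with a prior count of 2 and 100000 permutations within groups. Figures and shares used Python 3.11.15. Functions were tested on simulated data.

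Named IDs are IDs 3 to 8, their nearest neighbours, and, of the other members, those called, the 3 highest and 3 lowest fold changes at 100 ng/L, the 3 highest mean CPM values (scaf140.34, scaf140.35 and scaf140.13) and the 3 most like IDs 3 to 8. Replicate numbers 1 to 5 are shared by the groups. Deviations of same-numbered libraries correlated by 0.228 to 0.386 for 100 ng/L with solvent and 0.113 to 0.617 for 20 ng/L with solvent, all over the limit of 0.1, a pairing the labels do not state. Fits with DESeq2 1.42.0, RLE or library size scaling, no filter, the replicate number as a block, only the groups compared, and each library left out were alternatives. No 2 libraries were identical.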

Additional observations from a re-analysis of the deposited data

Results flagged for a closer look

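Of 63 groups of 5 libraries examined for the named members and shares, 6 had a library far from the others, and chance flags about 1 in 20 independent groups. For scaf140.10, solvent replicate 1 had 5.33 CPM where the other solvent libraries had 13.0 to 13.6 CPM. For scaf140.39 the same library had 6.92 CPM where the others had 2.27 to 3.40 CPM. Replicate 4 of 20 ng/L had 6.10 CPM of scaf140.28 where the others had 18.1 to 21.0 CPM. The same library had 14.1 CPM of scaf140.21 where the others had 3.24 to 6.09 CPM. In solvent too, replicate 4 stood highest for scaf140.21, with 11.5 CPM where the others had 3.23 to 4.76 CPM. The counts of scaf140.2 lay in 1 library only, replicate 3 of 100 ng/L, at 0.0630 CPM.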

How the results depend on the processing

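The calls of IDs 3 to 8 against solvent held at both concentrations under every setting tried. Contrasts of this kind chose these IDs, so their calls and fold changes against solvent remain a description under each setting. With 1 library left out, 5 to 9 members were called at 100 ng/L, 9 without solvent replicate 1, and 5 at 20 ng/L each time. The calls for 100 against 20 ng/L, 3 with all libraries, were 5 with DESeq2, 0 with only the groups compared (all 5 IDs at an unadjusted p below 0.05) and 0 to 5 with 1 library left out. They were 5 with the replicate block, where 0.0546% of all IDs tested were called. One same-numbered pair of these EE2 groups had a correlation of 0.0848, under the limit of 0.1, the other 4 had 0.135 to 0.447, and 4 of 10 libraries correlated best with their own number. The main fits treated no groups as paired, also not the EE2 groups with solvent, whose same-numbered pairs were over the limit. The labels do not settle this. With the replicate block, IDs 3 to 8 were 67.0- to 156-fold higher at 20 ng/L than in solvent (highest edgeR adjusted p = 0.0132). At 100 ng/L they were 2047- to 3547-fold higher (highest edgeR adjusted p = 0.000207). The replicate block changed no other call of a member in the fits. Exact sign-flip permutation tests of the shares with the replicate block cannot go below p = 0.0625, and the differences of -17.3, 3.25 and 9.09 points for scaf140.3, scaf140.5 and scaf140.8 did not pass there (adjusted p = 0.0781).

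Over 23 settings the median correlation of IDs 3 to 8 ran from 0.506 to 0.984. It was 0.506 for solvent and 100 ng/L alone and 0.744 for deviations divided by the group SD, both added after seeing the data. With 1 library left out it was 0.797 to 0.922. That of the other members, near 0, was -0.0353 with EE2 groups only, -0.0668 with the replicate block, -0.0263 for divided deviations and -0.0331 to 0.0352 with 1 library left out. With 1 library left out, the log2 fold changes at 100 ng/L of scaf140.9 (-0.17 to 0.013) and scaf140.13 (-0.068 to 0.028) changed sign, and the median of the other members ran from -0.11 to 0.03. The cause of these changes was not tested. Depth limits IDs 3 to 8 in solvent, and scaf140.1 and scaf140.2 in every group.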
